A study of Mus musculus with 6 samples.

Results

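The genes described here are the members of the serpin superfamily of protease inhibitors, taken as every row of the deposited count table whose symbol begins with Serpin and grouped by clade letter. There were 31 such genes among 19616, and 21 of them had enough counts to be tested among 15618 tested genes. RNA was sequenced from jejunal intestinal epithelial cells (IEC) enriched with EDTA from 3 control and 3 Hdac1/2-deleted mice, with 1 library per mouse. The control mice, C1, C3 and C3-3, were wild type. The Hdac1/2-deleted mice, H1, H5 and H9, carried the villin-Cre transgene, which recombines floxed alleles in the intestinal epithelium, and lacked both Hdac1 and Hdac2 there (villin-Cre; Hdac1-/-; Hdac2-/-). All mice were 3 months old and of a mixed C57BL/6J, 129SV and CD1 background, and the EDTA fraction can hold cells other than the epithelium.

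Inhibitory serpins present a flexible reactive centre loop as bait, and the protease that cuts the loop is trapped in a covalent complex in which the serpin has refolded. Clade letters group the family by sequence. Clade a holds mostly secreted plasma proteins made by the liver, such as alpha-1-antitrypsin and the corticosteroid carrier. Clade b holds intracellular inhibitors that protect cells from their own or from leukocyte proteases. Several other clades hold inhibitors of coagulation, fibrinolysis and complement, and a few members have no inhibitory function.

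The loops of the 5 alpha-1-antitrypsin copies Serpina1a to Serpina1e are shown because the loop decides which protease is inhibited and because these copies were higher in every Hdac1/2-deleted mouse. The coding sequences of Serpina1b, Serpina1c, Serpina1d and Serpina1e were 1239 bases each and 96.3% to 96.7% identical between pairs. The codons of the loop, 81 bases from the hinge to the serpin signature in the GENCODE M21 transcripts, are printed 5′ to 3′ on the coding strand, and capitals mark the bases that differ from Serpina1b.
Serpina1b: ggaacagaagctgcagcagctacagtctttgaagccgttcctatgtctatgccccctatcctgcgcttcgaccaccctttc
Serpina1a: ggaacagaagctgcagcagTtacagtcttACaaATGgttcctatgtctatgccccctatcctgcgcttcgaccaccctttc
Serpina1c: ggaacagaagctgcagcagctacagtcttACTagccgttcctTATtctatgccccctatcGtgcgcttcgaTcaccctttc
Serpina1d: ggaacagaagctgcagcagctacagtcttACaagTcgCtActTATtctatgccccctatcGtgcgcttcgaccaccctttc
Serpina1e: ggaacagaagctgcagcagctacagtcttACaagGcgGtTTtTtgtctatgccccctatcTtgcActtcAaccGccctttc
Serpina1a differed from Serpina1b at 6 bases, Serpina1c at 8, Serpina1d at 9 and Serpina1e at 11. Codon 15 of this stretch, counted from the hinge glycine, encodes the residue that enters the specificity pocket of the protease in alpha-1-antitrypsin. It read atg in Serpina1a and Serpina1b, tat in Serpina1c and Serpina1d, and ttg in Serpina1e.

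The start regions of these copies are shown because all 5 were higher together. RefSeq promoters (GRCm38.p6, 250 bases before the start) were held for 25 of the 31 genes. In each of Serpina1a to Serpina1e they contained the core motif of the hepatocyte nuclear factor HNF1, GTTAAT, which is in capitals in the following stretches of 56 bases, all on the minus strand of chromosome 12.
Serpina1b, chr12:103738200-103738255: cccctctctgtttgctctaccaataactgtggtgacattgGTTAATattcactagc
Serpina1a, chr12:103863625-103863680: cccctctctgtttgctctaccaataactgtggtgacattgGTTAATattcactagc
Serpina1c, chr12:103904962-103905017: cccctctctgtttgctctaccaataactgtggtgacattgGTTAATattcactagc
Serpina1d, chr12:103773634-103773689: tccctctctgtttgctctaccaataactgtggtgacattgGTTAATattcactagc
Serpina1e, chr12:103956960-103957015: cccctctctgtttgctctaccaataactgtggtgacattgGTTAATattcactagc
These stretches were identical in Serpina1a, Serpina1b, Serpina1c and Serpina1e, and Serpina1d differed from them at 1 base, so the 5 matches are copies of 1 sequence. The motif began 26 bases before the RefSeq start in Serpina1b and 16 to 78 bases before it in the others. On either strand it was found in 6.43% of 32851 promoters and, outside these copies, in Serpinb8 alone among the Serpin promoters held. The full HNF1 palindrome, which contains the core motif, was in none of them and in 0.00913% of all promoters. The TATA box TATAAA was found in 4 of the 28 Serpin promoters (12.4% of all promoters), those of Serpina3a, Serpina3f and Serpinb2. The STAT element TTCNNNGAA, which contains no other motif searched, was in 6 (7.02%), those of Serpina1f, Serpina3f, Serpina3g, Serpinb2 and Serpinb6a. The overlapping promoters of Serpinb2 hold the same TATA box and those of Serpina3f the same STAT element, so each is counted more than once. A match is a description of letters and shows no binding.

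Total counts of control libraries lay between 58017009 and 65902344, and those of Hdac1/2-deleted libraries between 36111035 and 65230566, so that 3 counts correspond to 0.0405 to 0.0790 CPM (counts scaled to the library total with TMM). Hdac1 was at 39.1, 34.5 and 48.8 CPM in C1, C3 and C3-3 and at 3.97, 2.53 and 4.81 CPM in H1, H5 and H9 (log2 fold change -3.43 ± 0.26 SE, adjusted p = 2.9e-05 in the quasi-likelihood test of edgeR, adjusted by Benjamini-Hochberg over all tested genes as for every adjusted p here). Hdac2 RNA overlapped between the groups (log2 fold change -0.18 ± 0.17 SE, adjusted p = 0.44 in edgeR). Control mouse C3 held 3082 counts over 4 Y-linked genes and every other mouse at most 13, so C3 was the only mouse with a male pattern. Without C3, every Serpin call reported here held except that of Serpinb5. Between 10 and 13 genes in each control mouse (0.0865% to 0.113% of those compared) lay at less than 10% of their level in both other control mice. The 13 of C3-3 included the smooth muscle genes Acta2, Actg2, Cnn1, Des, Myh11, Myl9, Synm and Tagln, and Serpina1b. The summed level of enterocyte and general epithelial markers ranged from 69992 to 73809 CPM in control and from 42437 to 53680 CPM in Hdac1/2-deleted mice, with 2 of 18 increased and 3 decreased, and none was near 0.

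Among the 21 tested Serpin genes, 7 increased and 3 decreased (adjusted p of at most 0.05 and at least 2-fold), and 11 were not called. Of all tested genes 12.4% increased and 12.7% decreased, and these shares are the background for every count of called genes in a list given here. Without the limit on size, 10 Serpin genes passed, beside 40.8% of all tested genes. The median log2 fold change of the 21 was 0.95, beside -0.0081 over all genes. This median and the counts of increased genes, also by clade, depend on genes tested only because they are high in 1 group. With at least 10 counts required in every mouse, 9 of the 21 drop out and the median of the other 12 is -0.34. Of these 12, 1 increased and 3 decreased, beside 1435 and 1548 of all 13153 genes that this filter keeps. The groups did not overlap in 13 of the 21, with 10 higher and 3 lower in Hdac1/2-deleted mice, beside 53.2% of all tested genes. By clade, 4 of 8 tested clade a genes increased and none decreased, whereas 2 of 7 clade b genes increased and 1 decreased. Serpinf2 increased, Serpine2 and Serping1 decreased, and the only tested genes of clades c, h and i, Serpinc1, Serpinh1 and Serpini1, were not called. In bulk RNA, fewer cells of a type and less RNA per cell cannot be told apart. The labels name the mice but nothing further about litters or days of preparation.

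**Figure D1:**
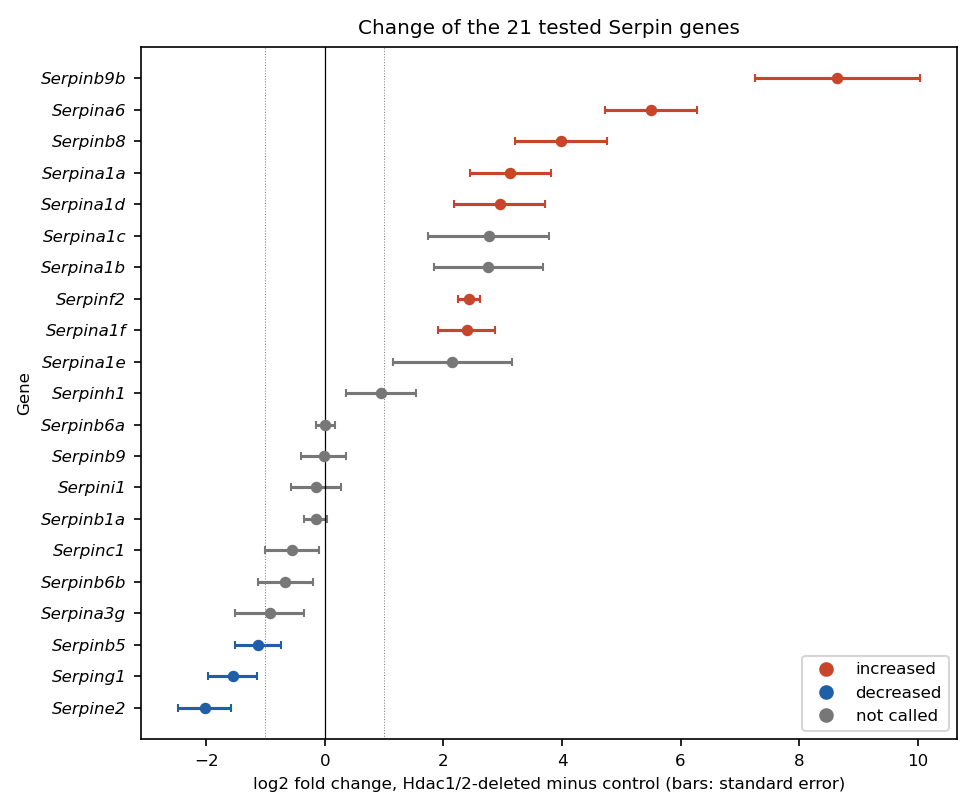
Log2 fold change (Hdac1/2-deleted minus control, bars are standard errors) of the 21 tested Serpin genes, ordered by size, with dotted lines at 2-fold. The 7 increased genes lie to the right, from Serpina1f at 2.39 to Serpinb9b at 8.65, and the uncalled Serpina1b, Serpina1c and Serpina1e lie at 2.76, 2.77 and 2.15 with standard errors of 0.92 to 1.02.

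Serpin RNA as a whole was dominated by 2 clade b genes whose levels did not pass the test. Serpinb1a, an inhibitor of neutrophil elastase and related proteases, stood at 660, 498 and 657 CPM in C1, C3 and C3-3 and at 599, 429 and 604 CPM in H1, H5 and H9 (log2 fold change -0.15 ± 0.19 SE, adjusted p = 0.56 in edgeR). Serpinb6a, an intracellular inhibitor of cathepsin G-like proteases, stood at 385, 372 and 486 CPM and at 436, 378 and 435 CPM (log2 fold change 0.0062 ± 0.16 SE, adjusted p = 0.98 in edgeR). The groups overlapped for both genes. Serpinb6a overlaps 1110046J04Rik, Nqo2 and Ripk1 on the opposite strand, and whether counting used the strand is not given in the sources used here. No other Serpin gene exceeded 100 CPM in every mouse, 27 of the 31 were under 10 CPM in every mouse, and 21 were under 2 CPM in every mouse.

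Per kilobase of exon, the order of mean levels in control mice was Serpinb1a (263 CPM per kb), Serpinb6a (76.6), Serpina3g (2.24), Serpinf2 (1.82) and Serpina1b (0.927). The ranges of Serpina3g and Serpinf2 overlapped, so their order is not separated. In Hdac1/2-deleted mice the order was Serpinb1a (236 CPM per kb), Serpinb6a (76.9), Serpinf2 (9.86), Serpina1b (6.30) and Serpina1c (2.75), and the ranges of these 5 did not overlap between neighbours. Summed over all 31 genes, Serpin RNA was 1070, 897 and 1162 CPM in control and 1084, 874 and 1104 CPM in Hdac1/2-deleted mice. Clade b held 98.0%, 97.4% and 98.7% of this sum in control mice and 95.9%, 92.7% and 94.5% in Hdac1/2-deleted mice, a difference of -3.67 percentage points. Clade a held 0.847%, 1.42% and 0.677% and then 1.85%, 3.71% and 2.74%, a difference of 1.78 points, and clade f 0.420%, 0.484% and 0.346% and then 1.74%, 2.95% and 2.19%, a difference of 1.88 points. The groups did not overlap in any of these shares, and the two-sided exact permutation p was 0.1 for each, the smallest that 3 against 3 mice allow.

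**Figure D2:**
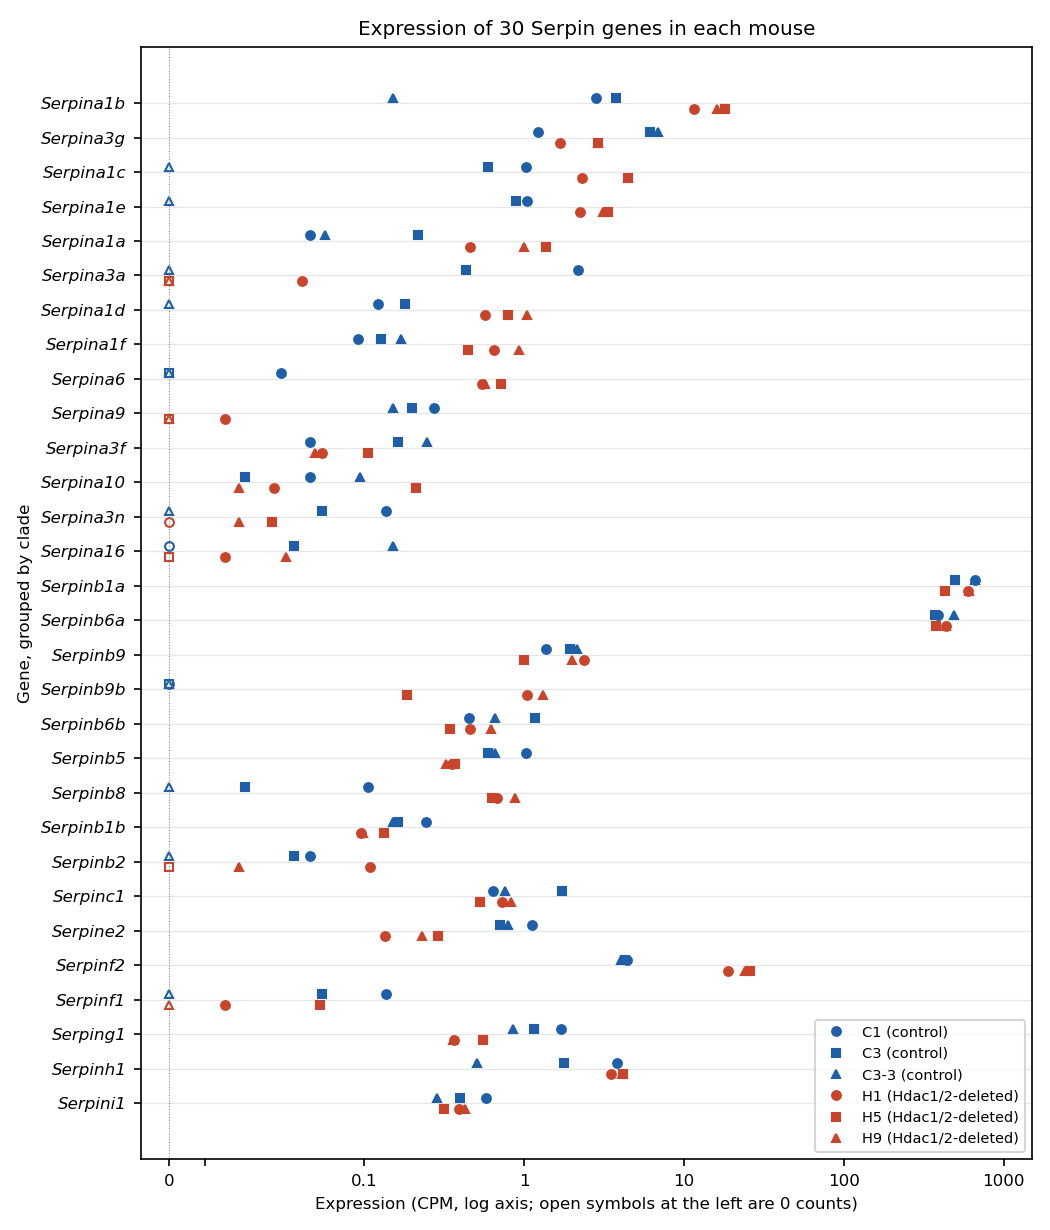
Expression in CPM (log axis, open symbols for 0 counts) of 30 Serpin genes in each of 3 control and 3 Hdac1/2-deleted mice, 1 symbol per mouse, grouped by clade. Serpinb1a and Serpinb6a lie between 372 and 660 CPM in all mice, and the Serpina1 copies, Serpina6, Serpinb8, Serpinb9b and Serpinf2 lie higher in each Hdac1/2-deleted mouse than in each control mouse.

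The alpha-1-antitrypsin genes, whose human counterpart inhibits neutrophil elastase in plasma, were higher in every Hdac1/2-deleted mouse. Serpina1b (chr12:103728156-103830373), the most abundant copy, was at 2.81, 3.76 and 0.151 CPM in C1, C3 and C3-3 and at 11.5, 18.1 and 16.1 CPM in H1, H5 and H9. These are 186, 209 and 8 counts against 851, 686 and 991 counts. C3-3 stood far under the other control mice, and the groups did not overlap. The log2 fold change was 2.76 ± 0.92 SE (adjusted p = 0.058 in edgeR), which did not pass, and without C3-3 it was 2.22 (adjusted p = 0.00101 in edgeR), which did.

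In Serpina1c, Serpina1e and Serpina1d, C3-3 had no counts, whereas in Serpina1a it had 3, as many as C1. Serpina1c was at 1.03, 0.594 and 0 CPM in C1, C3 and C3-3 and at 2.31, 4.45 and 4.47 CPM in H1, H5 and H9 (log2 fold change 2.77 ± 1.02 SE, adjusted p = 0.070 in edgeR). Serpina1e was at 1.04, 0.882 and 0 CPM and at 2.24, 3.32 and 3.09 CPM (log2 fold change 2.15 ± 1.0 SE, adjusted p = 0.13 in edgeR). Neither passed, the groups did not overlap in either, and both passed without C3-3, at 2.21 (adjusted p = 0.00789 in edgeR) for Serpina1c and 1.59 (adjusted p = 0.0131) for Serpina1e. Serpina1a rose from 0.0453, 0.216 and 0.0564 CPM to 0.459, 1.37 and 0.991 CPM (log2 fold change 3.13 ± 0.68 SE, adjusted p = 0.0061 in edgeR). Serpina1d rose from 0.121, 0.180 and 0 CPM to 0.567, 0.790 and 1.04 CPM (log2 fold change 2.95 ± 0.76 SE, adjusted p = 0.0137 in edgeR). Both calls rest on 0 to 64 counts per mouse, and both genes entered the test through the Hdac1/2-deleted mice.

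Serpina1b overlaps Serpina1d, Gm8893, Gm17042 and Gm17043 on the same strand. The copies also share sequence, so reads can be split or lost between them in a way that depends on the counting. Of all windows of 100 bases in their transcripts, 58.5% in Serpina1c, 42.8% in Serpina1a, 29.3% in Serpina1d, 14.8% in Serpina1b and 14.4% in Serpina1e also occurred in another gene, here another copy or Gm8893, and the values of single copies are therefore uncertain. Their counts were added, as an alternative chosen after seeing the data. The sum was 5.04, 5.63 and 0.207 CPM in C1, C3 and C3-3 and 17.1, 28.0 and 25.7 CPM in H1, H5 and H9, or 3.63 ± 2.98 against 23.6 ± 5.76 CPM (mean ± SD, n = 3). The groups did not overlap. The log2 fold change of the sum was 2.70 ± 1.0 SE (adjusted p = 0.0836 in edgeR), and 2.15 ± 0.28 SE (adjusted p = 7.86e-04) without C3-3. The low level of this 1 control mouse decided whether the sum passed, while its inclusion raised the estimate. Whether all mice of this mixed background carried the same Serpina1 copies was not tested.

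**Figure D3:**
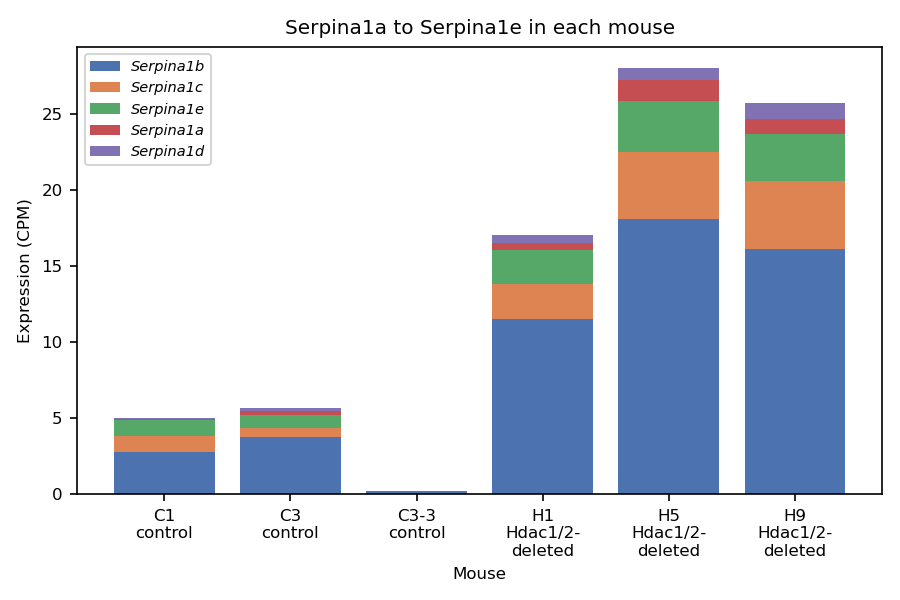
Stacked expression in CPM of Serpina1a to Serpina1e in each mouse. The 3 Hdac1/2-deleted mice reach 17.1 to 28.0 CPM, C1 and C3 5.04 and 5.63 CPM, and C3-3 0.207 CPM, with Serpina1b the largest part in every mouse.

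Serpina1f, a more distant copy with no window of 100 bases in common with another gene, rose from 0.0906, 0.126 and 0.169 CPM to 0.648, 0.447 and 0.926 CPM (log2 fold change 2.39 ± 0.48 SE, adjusted p = 0.0040 in edgeR). C3-3 was the highest control mouse here, unlike in the copies above. Serpina1f had 6, 7 and 9 counts in C1, C3 and C3-3 and 48, 17 and 57 counts in H1, H5 and H9. It entered the test only through the Hdac1/2-deleted mice, so its call adds no weight to these counts. Serpina6, corticosteroid-binding globulin, is a serpin that carries glucocorticoids in blood and inhibits no protease. It had 2, 0 and 0 counts in C1, C3 and C3-3 and 40, 27 and 35 counts in H1, H5 and H9, or 0.540, 0.711 and 0.569 CPM in the latter. The ratio of the summed counts, scaled for depth, was 51.4 (95% exact interval 13.9 to 430, counting error only), and the gene passed the test (adjusted p = 6.6e-04 in edgeR). Serpina6 entered the test only through the Hdac1/2-deleted mice, so its call adds no weight to these counts.

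The 8 tested genes of the clade lie in 1 cluster on chromosome 12 with all 14 clade a genes of the table (chr12:103614786-104414329, GRCm38, 799.5 kb, 23 annotated protein-coding Serpin genes). From its start, Serpina6, Serpina1f and the Serpina1a to Serpina1e copies lie on one side. These 7 were higher in Hdac1/2-deleted mice without overlap, beside 53.2% of all tested genes without overlap in either direction. The Serpina1a to Serpina1e copies share sequence, so the 7 are not separate observations. Serpina6, Serpina1f, Serpina1a and Serpina1d entered the test through the Hdac1/2-deleted mice. Serpina10 and Serpina16 lie on the same side, had at most 8 counts per mouse, overlapped between the groups and were not tested. Of Serpina9 and the Serpina3 genes on the other side, only Serpina3g was tested. Serpina3g, an intracellular inhibitor of lysosomal cathepsins known from leukocytes, was at 1.22, 6.10 and 6.85 CPM in C1, C3 and C3-3 and at 1.67, 2.89 and 2.89 CPM in H1, H5 and H9 (log2 fold change -0.93 ± 0.58 SE, adjusted p = 0.24 in edgeR). The groups overlapped because of C1, and without it the change was -1.38 (adjusted p = 0.00876 in edgeR). C1 was also the control mouse with the lowest summed level of 21 leukocyte markers, at 207 CPM beside 503 in C3 and 432 in C3-3, against 114, 197 and 263 CPM in H1, H5 and H9. Of these markers 18 were tested, 2 increased (Cd4, Csf1r) and 2 decreased (Cd3g, Cd8a), and their part in the result was not tested.

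Serpina9, first described in germinal centre B cells, had 18, 11 and 8 counts in C1, C3 and C3-3 and 1, 0 and 0 counts in H1, H5 and H9, a ratio of 36.7 in favour of control mice (95% exact interval 6.20 to 1489, counting error only). Serpina3a had 144, 24 and 0 counts and 3, 0 and 0 counts, a ratio of 55.6 (18.7 to 272), and the groups overlapped because C3-3 was at 0. Both reached enough counts in too few mice to be tested in the fit of all mice. Where 1 mouse was left out, Serpina9 entered the test and was called lower in 4 of 6 fits (log2 fold change -6.53 to -4.27), and Serpina3a in the fit without C3-3, the control mouse at 0, alone. Both entered through the control mice in which they are high, so these calls carry no weight.

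**Figure D4:**
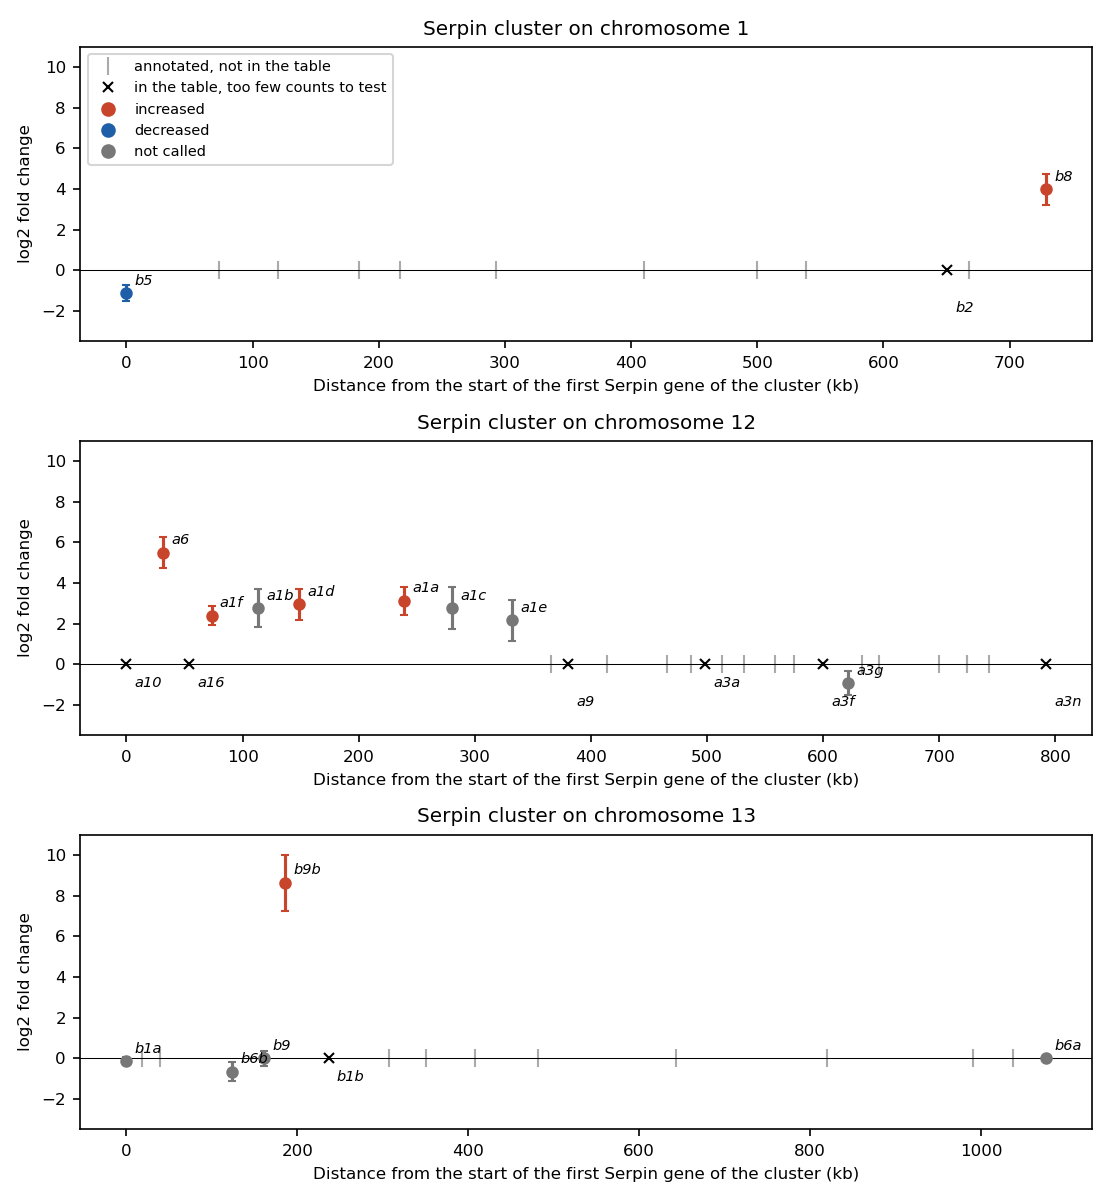
Log2 fold change (Hdac1/2-deleted minus control, bars are standard errors) of the Serpin genes of the chromosome 1, 12 and 13 clusters against distance in kb from the first Serpin gene of each. On chromosome 12 the 7 tested genes from Serpina6 to Serpina1e lie above 2. On chromosome 13 Serpinb9b at 8.65 stands beside uncalled genes from -0.67 (Serpinb6b) to 0.0062 (Serpinb6a).

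Serpinf2 had the smallest error of all increased Serpin genes. It encodes alpha-2-antiplasmin, the main plasma inhibitor of the clot-dissolving protease plasmin. It was at 4.36, 4.28 and 4.03 CPM in C1, C3 and C3-3 and at 18.9, 25.7 and 24.1 CPM in H1, H5 and H9, or 4.22 ± 0.18 against 22.9 ± 3.56 CPM (mean ± SD, n = 3). Every Hdac1/2-deleted mouse was above every control mouse, and the control mice were close together, with C3-3 among them. The log2 fold change was 2.44 ± 0.19 SE (adjusted p = 2.95e-05 in edgeR). Its neighbour on chromosome 11, Serpinf1, which encodes pigment epithelium-derived factor and was too low to test, had 9, 3 and 0 counts and then 1, 2 and 0 counts.

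In clade b, Serpinb9b and Serpinb8 increased from very low levels. Both entered the test only through the Hdac1/2-deleted mice, so their calls add no weight to their counts. Serpinb9b had no count in any control mouse and 77, 7 and 81 counts in H1, H5 and H9, or 1.04, 0.184 and 1.32 CPM. The mean of the Hdac1/2-deleted mice, 0.847 CPM, was at least 16.3-fold higher, against a floor of 3 counts per control library (adjusted p = 0.0032 in edgeR). H5 lay well under H1 and H9. Serpinb9, an inhibitor of the cytotoxic granule protease granzyme B and the neighbour of Serpinb9b, was at 1.36, 1.94 and 2.14 CPM and at 2.36, 1.0 and 1.98 CPM, with overlap (log2 fold change -0.017 ± 0.38 SE, adjusted p = 0.98 in edgeR). The loops of both, from the same stretch as above and with no capitals since their lengths of 93 and 84 bases differ, are shown because 1 of these neighbours changed and the other did not pass the test.
Serpinb9b: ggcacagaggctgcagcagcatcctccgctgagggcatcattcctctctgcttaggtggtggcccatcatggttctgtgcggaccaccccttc
Serpinb9: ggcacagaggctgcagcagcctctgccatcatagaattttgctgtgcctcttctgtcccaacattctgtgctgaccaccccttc
No window of 100 bases was shared between Serpinb9b and any other gene.

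Serpinb9b lies in a cluster of 1160.7 kb on chromosome 13 (chr13:32842092-34002794) with 6 Serpin genes in the table, of which 5 were tested and Serpinb9b was the only Serpin gene called. The uncalled ones included Serpinb1a and Serpinb6a at its ends, and Serpinb6b (log2 fold change -0.67 ± 0.46 SE, adjusted p = 0.28 in edgeR). Serpinb1b, with at most 16 counts per mouse, was lower in each Hdac1/2-deleted mouse and was not tested. The third cluster, on chromosome 1 (chr1:106861173-107610484, 749.3 kb), held genes called in both directions. Serpinb8, an intracellular inhibitor that blocks furin in vitro, rose from 0.106, 0.0180 and 0 CPM to 0.675, 0.632 and 0.878 CPM (log2 fold change 3.98 ± 0.77 SE, adjusted p = 0.0033 in edgeR). Serpinb5, maspin, an epithelial serpin that does not act as a protease inhibitor, decreased from 1.03, 0.594 and 0.658 CPM to 0.351, 0.368 and 0.325 CPM (log2 fold change -1.13 ± 0.39 SE, adjusted p = 0.047 in edgeR). The groups did not overlap, but the Serpinb5 call was lost when any 1 of the 6 mice was left out.

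The squamous epithelial marker Sprr1a increased (14.2 to 16.1 CPM summed over 4 such markers in Hdac1/2-deleted mice, 2.11 to 2.63 in control), while Krt13 had no count in control mice and Krt5, Krt4, Krt6a and Trp63 were not in the table. The part of other cell types in the changes of Serpinb8 and Serpinb5 was not tested.

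Serpine2 and Serping1, which are made by stromal cells among others, decreased. Serpine2 encodes protease nexin-1, an inhibitor of thrombin and of plasminogen activators. It was at 1.12, 0.702 and 0.790 CPM in C1, C3 and C3-3 and at 0.135, 0.290 and 0.228 CPM in H1, H5 and H9 (log2 fold change -2.03 ± 0.45 SE, adjusted p = 0.0063 in edgeR). Serping1 encodes the C1 inhibitor, which blocks the first proteases of the complement cascade. It was at 1.71, 1.15 and 0.847 CPM and at 0.364, 0.553 and 0.358 CPM, or 1.23 ± 0.44 against 0.425 ± 0.11 CPM (mean ± SD, n = 3; log2 fold change -1.55 ± 0.41 SE, adjusted p = 0.0143 in edgeR). The groups did not overlap in either gene. The Serping1 call was lost without C1 (adjusted p = 0.0519 in edgeR), without H1 (0.0555) and without H9 (0.0546).

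Serpinh1, the collagen chaperone HSP47, was at 3.80, 1.76 and 0.508 CPM in C1, C3 and C3-3 and at 3.49, 4.16 and 4.11 CPM in H1, H5 and H9 (log2 fold change 0.95 ± 0.59 SE, adjusted p = 0.24 in edgeR). C1 lay within the range of the Hdac1/2-deleted mice, and without C1 the change was 1.79 (adjusted p = 0.0200 in edgeR), which passed. Stromal and endothelial markers, 15 in the table and 11 tested, summed to 50.3, 45.1 and 17.7 CPM in C1, C3 and C3-3 and to 20.8, 32.7 and 27.0 CPM in H1, H5 and H9. Pdgfrb increased and Acta2, Des and Dcn decreased. The smooth muscle genes Acta2 (827, 616 and 32 counts, then 6, 1 and 6) and Des (880, 785 and 35, then 7, 8 and 5) were near 0 in Hdac1/2-deleted mice and low in C3-3. The part of these cells in the values of Serpine2, Serping1 and Serpinh1 was not tested.

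The other tested genes did not pass. Serpinc1, antithrombin, which inhibits thrombin and factor Xa, had 42, 95 and 40 counts in C1, C3 and C3-3 and 54, 20 and 51 counts in H1, H5 and H9 (log2 fold change -0.56 ± 0.46 SE, adjusted p = 0.36 in edgeR). Serpini1, neuroserpin, was under 1 CPM in every mouse (log2 fold change -0.15 ± 0.42 SE, adjusted p = 0.81 in edgeR). The groups overlapped for both. Of the 10 untested genes, Serpina9 and Serpinb1b did not overlap between the groups and both were higher in control mice. Serpina3f had at most 13 counts per mouse, and Serpina10, Serpina16, Serpina3n, Serpinb2 and Serpinf1 at most 9.

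Liver markers were examined because Serpina1, Serpina6 and Serpinf2 are best known from hepatocytes. Of 10 hepatocyte markers with counts, 7 were tested, 3 increased (F9, Hamp, Tat) and 3 decreased (Alb, Cyp2e1, Hpd), and their sum overlapped, at 492 to 702 CPM in control and 489 to 838 CPM in Hdac1/2-deleted mice. Nearly all of this sum was Cps1, which enterocytes also express, and the other 9 markers summed to 6.36 to 8.23 CPM in control and 3.84 to 20.9 CPM in Hdac1/2-deleted mice. Cyp2e1 had no count in Hdac1/2-deleted mice, and Alb fell by 1.82 on the log2 scale, from 0.909 ± 0.094 to 0.258 ± 0.052 CPM (mean ± SD, n = 3; adjusted p = 0.0047 in edgeR). A wider list held 22 liver-secreted and marker genes other than serpins. Beside 12.4% and 12.7% of all tested genes, 11 of its 18 tested genes increased and 3 decreased. Their median change was 3.83 on the log2 scale. Among them were the fibrinogen chain Fga, at 0.0496 ± 0.058 against 71.5 ± 35.0 CPM, the iron carrier Trf, at 0.971 ± 0.28 against 100 ± 32.4 CPM, and the haem carrier Hpx, at 0.0683 ± 0.077 against 9.67 ± 4.48 CPM (mean ± SD, n = 3). Fga and Hpx could be tested only because of their levels in Hdac1/2-deleted mice, and Fgb, Fgg and Kng1 had no count in control mice. The median and the count of increased genes of this wider list depend on such genes. Exocrine pancreas markers summed to 0.302 to 3.96 CPM in control and 3.25 to 12.7 CPM in Hdac1/2-deleted mice, with Ctrb1 and Gp2 increased of 5 tested, and neuronal and glial markers to 1.09 to 2.32 and 3.43 to 6.18 CPM, with Tubb3 increased of 4 tested. The part of these cells in the Serpin changes was not tested.

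Of 45 tested proteases that serpins target or could meet in the gut, 13 increased and 4 decreased, and the median change was 0.31 on the log2 scale. The largest increases among those of at least 1 CPM were of Hpn, the membrane protease hepsin (6.90), F10, coagulation factor X (5.57, from 1.82 ± 1.60 to 85.7 ± 15.8 CPM, mean ± SD, n = 3), Ctrb1, a chymotrypsinogen (3.57), F12, coagulation factor XII (3.55), the trypsin-like protease Prss22 (2.67) and the lysosomal protease Ctsl (2.23). C1ra, a complement protease that the C1 inhibitor blocks, decreased (-2.40), as did the lysosomal cathepsins Ctsh (-2.12) and Ctss (-1.59) and the Paneth cell metalloprotease Mmp7 (-1.16). Values in these brackets are log2 fold changes unless CPM is named.

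Beside 12.4% and 12.7% of all tested genes, 10 of 23 tested inhibitors outside the serpin family increased and 5 decreased. Their median change was -0.30 on the log2 scale. Ambp, precursor of the trypsin inhibitor bikunin, increased most among those of at least 1 CPM (4.11), followed by Wfdc2 (2.64), the cathepsin inhibitor Cstb (1.93), Itih5 (1.61), the metalloprotease inhibitor Timp3 (1.45) and Pebp1 (1.16). The cystatins Cst6 (-3.26) and Cst3 (-1.38), the inhibitor of the tissue factor pathway Tfpi (-3.24) and the trypsin inhibitors Spink1 (-1.47) and Spink4 (-1.05) decreased. Both lists, proteases and other inhibitors, held genes called in each direction. Whether their shares of called genes differ from those over all tested genes was not tested.

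Among 13 tested hormone and receptor partners of serpins, 5 increased and 5 decreased, beside 12.4% and 12.7% of all tested genes. The endocytic receptor Lrp2, which takes up many ligands including protease complexes, was at 0.0462 ± 0.065 CPM in control and 27.6 ± 13.8 CPM in Hdac1/2-deleted mice (mean ± SD, n = 3; log2 fold change 9.03). Lrp2 could be tested only because of its level in Hdac1/2-deleted mice. Ttr (4.07), the heparan sulphate proteoglycans Hspg2 (2.97) and Sdc1 (1.79), and renin, Ren1 (2.73), also increased. The glucocorticoid receptor Nr3c1 (-1.17) and the glucocorticoid-inactivating enzyme Hsd11b2 (-1.02) decreased, as did the angiotensin-processing peptidases Ace (-2.94) and Enpep (-1.21). Agt, angiotensinogen, belongs to the serpin family without the name and was looked up after its values were seen. It was at 3.58 ± 0.32 CPM in control and 1.07 ± 0.30 CPM in Hdac1/2-deleted mice (mean ± SD, n = 3; log2 fold change -1.74, adjusted p = 0.0021 in edgeR). Of 21 genes that fold and export or dispose of serpins in the endoplasmic reticulum, only the disulphide isomerase Pdia4 was called (1.10), with a median of 0.38 over the list.

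**Figure D5:**
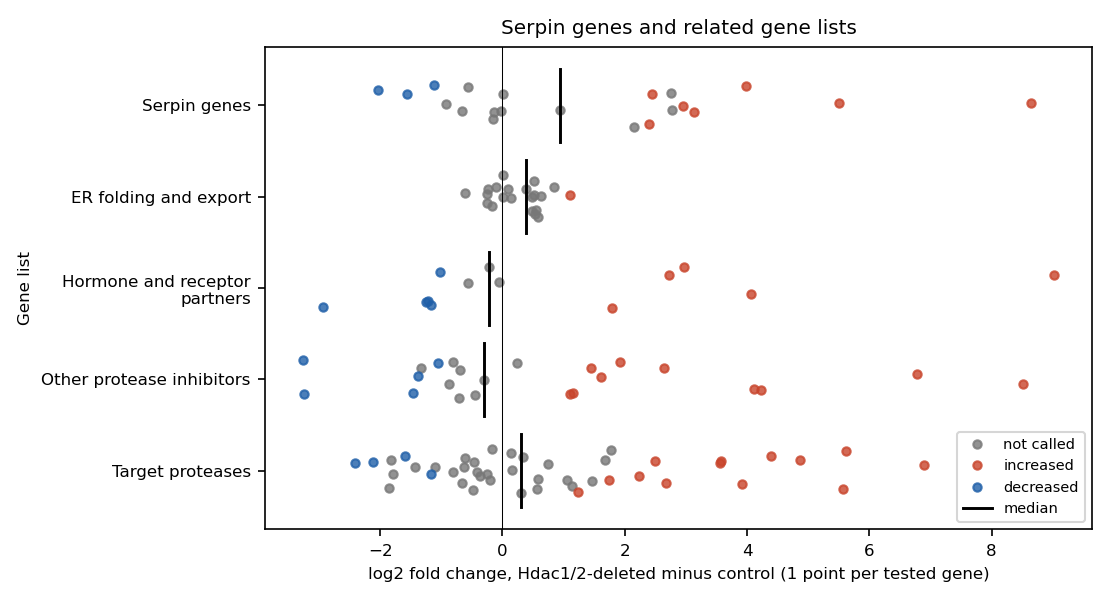
Log2 fold change (Hdac1/2-deleted minus control) of each tested gene of the Serpin family and of 4 related lists, 1 point per gene, with the median as a bar. Serpin genes, proteases, inhibitors and partners hold called genes on both sides of 0, and 20 of the 21 endoplasmic reticulum genes are not called. Over all tested genes 12.4% increased and 12.7% decreased.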

How the data were processed

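Jejunal IEC RNA of 3 wild-type and 3 Hdac1/2-deleted mice was sequenced. The authors aligned the reads with STAR 2.4.0f1 (version per the labels) to GRCm38 according to the methods, whereas mm9 stands in the labels' list of builds. The program and annotation used for counting are not given in the sources used here. The deposited raw counts of reads per gene were analysed, and each of the 19616 genes listed had at least 10 counts in all 6 samples together. The deposited normalised values, mean expression, fold changes and p-values of the authors' comparison were not used.

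Counts were filtered with filterByExpr (15618 genes kept), normalised with TMM (factors 0.892 to 1.14) and fitted with edgeR 4.0.16's robust quasi-likelihood model, prior count 0.125, without covariates, in R 4.3.3. Standard errors are the fold change divided by the square root of F. Adjusted p-values are by Benjamini-Hochberg over all tested genes, with calls at 0.05 and 2-fold. The steps were tested on simulated data. DESeq2 1.42.0 and limma-voom (limma 3.58.1), other scalings and filters, and leaving out each mouse were alternatives. Pairs of mice of a group differed by more than sampling noise (chi-square per degree of freedom at least 100.4). P-values rest on the modelled spread between mice, with estimates of spread shared over genes. Counting error adds to this spread in genes of few counts, such as Serpine2 with 10 to 14 counts in Hdac1/2-deleted mice.

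Gene positions, exon lengths and loops came from GENCODE M21 (all 31 matched by identifier), promoters from RefSeq. Mouse values were given for called genes of at least 1 CPM and the 5 most abundant uncalled genes, and pathway genes by up to 6 called per direction at that level. The remaining Serpin genes with values were chosen after these were seen. Results of 2 genes are not reported here. Members and lists were chosen with earlier results of these data known.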

Additional observations from a re-analysis of the deposited data

How the results depend on the processing

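Over the 15 alternatives tried for each count, 7 Serpin genes increased as reported or up to 10 (limma-voom and without control replicate C3-3), except for a limit of 0.01 on the adjusted p (6) and with at least 10 counts required in every sample. That filter left 12 Serpin genes and 1 increase, since genes at or near 0 in control mice drop out by its construction. Decreased Serpin genes numbered 2 to 4, except 1 at the limit of 0.01. Without the 2-fold limit, 3198 of all genes increased and 3168 decreased. With library totals in place of TMM the median of all genes rose from -0.0081 to 0.18 and the calls over all genes split into 2463 up and 1538 down (1944 and 1989 with TMM), and the Serpin calls into 8 and 2. Serpina1b passed there (adjusted p = 0.0459 in edgeR), in DESeq2 (0.0232), in limma-voom (0.0103) and without robust estimation (0.0228). Serpinb5 did not pass with library totals (0.0978), in DESeq2 (0.059) or without a filter (0.0593). Per kilobase of exon the clade a share differed by 2.72 points. Without Serpinb1a the shares of clades a and b differed by 3.49 and -7.2 points. Of the values of single genes, 227 kept direction and call, 12 gained and 12 lost the call, and 13, all of genes not called in any of these fits, changed sign. With library totals the log2 fold changes of Serpinb9, Serpini1 and Serpinb1a were 0.19, 0.028 and 0.031, and with at least 10 counts in every sample that of Serpinb9 was 0.00019. Leaving out each mouse gave -0.27 to 0.27 for Serpinb9, -0.061 to 0.15 for Serpinb6a, -0.35 to 0.16 for Serpini1 and -0.81 to 0.017 for Serpinc1. No paired analysis was possible because the mouse names do not pair the groups. At these depths, genes under about 10 counts in most mice could not be tested.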
